A study of Rattus norvegicus with 6 samples.

Results

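The transcription factors of the naive pluripotency network, 9 genes named Esrrb, Tbx3, Nr0b1, Tfcp2l1, Nr5a2, Gbx2, Sall4, Zscan10 and Foxd3, were followed in 2 kinds of rat pluripotent cell. They were taken as every probe set whose annotated gene symbol is exactly 1 of these names, which gave 15 probe sets for 9 of 9 genes, out of 31042 probe sets and 14217 genes with a symbol of their own on the array. The samples were 3 of flat pluripotent stem (fPS) cells and 3 of embryonic stem (ES) cells, all from Sprague-Dawley rats, with total RNA labelled with biotin and hybridised to 1 Affymetrix array each. For both groups the labels give the same medium, with LIF, the GSK3 inhibitor CHIR99021 and the MEK inhibitor PD0325901, and the same maintenance on mouse embryonic fibroblasts treated with mitomycin C. The colonies were removed by hand, and the labels name no genotype, transgene, age or clone for either group. Whether the arrays of a group stand for separate cultures is not stated, so every p-value here covers the spread among 6 samples that may be technical repeats. The question addressed was whether the factors that hold ES cells in the naive state have the same transcript levels in fPS cells.

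The naive state is the ground state of pluripotency, that of the epiblast before implantation, and ES cells keep it in culture when LIF signals through STAT3, when the GSK3 inhibitor stabilises β-catenin and when the MEK inhibitor blocks ERK. These inputs act on a set of mutually reinforcing transcription factors around Pou5f1, Sox2 and Nanog. In mouse ES cells, β-catenin relieves the repressor Tcf7l1 from Esrrb and Tfcp2l1, while STAT3 drives Tfcp2l1 and Gbx2, so that the factors below read out the medium as well as the state of the cells.

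Of the 9 genes, 6 had a probe set above the median of the array on all 6 arrays: Esrrb, Tbx3, Tfcp2l1, Gbx2, Sall4 and Zscan10. Nr0b1, Nr5a2 and Foxd3 were dim in both kinds of cell. None of the 15 probe sets passed the limma test at an adjusted p of 0.05 (lowest adjusted p = 0.141), where 0.693% of all probe sets passed, and 3 of 15 had an unadjusted p under 0.05, against 15.4% of all (2 of 9 genes, against 17.5% of all genes). In 5 of the 9 probe sets that were above the array's median on all 6 arrays, the 95% interval of the change, not adjusted for the number of tests, lay within 2-fold in both directions. These were the probe sets of Esrrb, Tfcp2l1, Sall4 and Zscan10 and the brightest of Tbx3. In 2 genes the groups did not overlap. Gbx2 was lower on all 3 fPS arrays in both of its probe sets, and Nr0b1 was higher on all 3. Of all probe sets, 9.88% lay lower without overlap and 10.1% higher, so 2 and 1 of 15 were near that background. By sign, 12 of 15 probe sets were negative, with a median log2 change of -0.24, against 48.3% negative and a median of 0.014 among all probe sets. The 4 probe sets of Tbx3 and 2 of Gbx2 among these 12 are repeat readings of the same RNA. As genes, 7 of 9 were negative, with a median of -0.28, against 50.0% negative and a median of -4.6e-05 among all genes. With each array centred on its median 13 of 15 were negative, while without ES replicate 3 there were 7, with a median of 0.0089, and without ES replicate 3 and fPS replicate 3 there were 6, with a median of 0.11. A log2 change is the difference of the mean log2(intensity + 16), fPS minus ES, and the added 16 shrinks the change of dim probe sets.

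**Figure D1:**
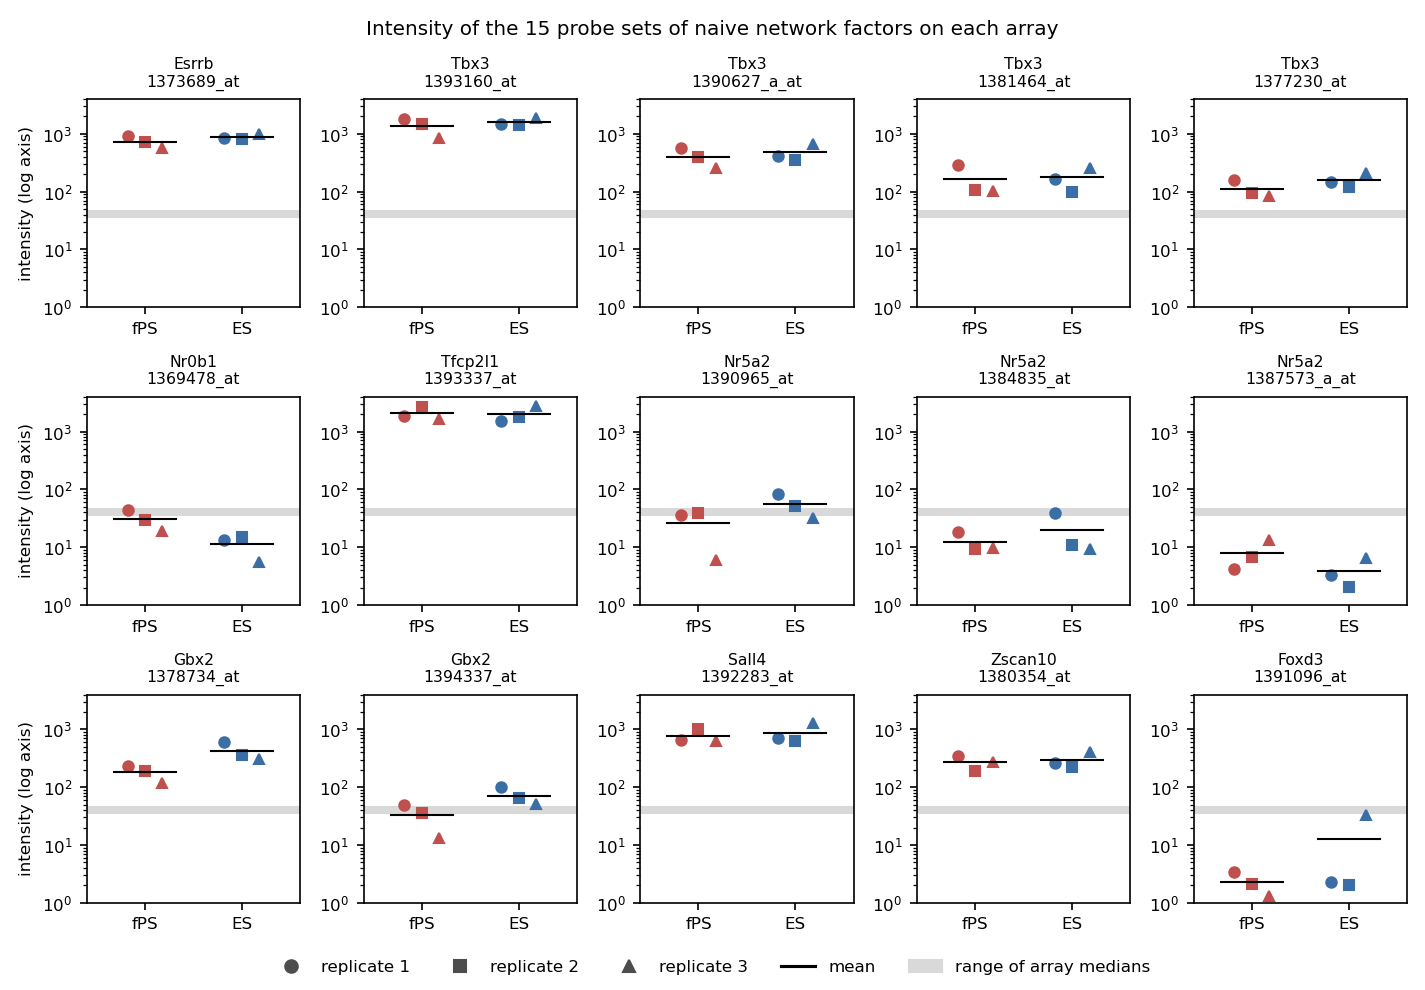
Intensity (log axis) of each of the 15 probe sets on the 3 fPS and 3 ES arrays, 1 panel per probe set, with the replicate number as the symbol, the group mean as a bar and the range of the 6 array medians (36.2 to 45.3) in grey. Only the panels of Gbx2 and Nr0b1 show groups that do not overlap, and the panels of Nr0b1 and Foxd3 and most points of Nr5a2 lie at or under the grey band.

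The nuclear receptors of the network are Esrrb, Nr0b1 and Nr5a2. Esrrb is an orphan receptor that sustains self-renewal downstream of GSK3 inhibition in mouse ES cells. Its intensity was 907, 716 and 555 on the fPS arrays and 851, 799 and 972 on the ES arrays. The groups overlapped, with fPS replicate 1 above 2 of the 3 ES arrays and fPS replicate 3 the lowest of the 6. The log2 change was -0.29 (SE 0.237, 95% interval -0.82 to 0.25, adjusted p = 0.634 by limma), and it was -0.11 without fPS replicate 3 and -0.46 without fPS replicate 1.

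Nr0b1, also known as Dax1, is an atypical nuclear receptor without the usual DNA-binding domain, which acts as a corepressor. Its intensity was 44.3, 29.4 and 19.4 on the fPS arrays, against 13.4, 15.3 and 5.56 on the ES arrays. Every fPS value was higher than every ES value, but each was under the median of its own array, so Nr0b1 was dim throughout. The log2 change was 0.76 (SE 0.265, 95% interval 0.16 to 1.37), and it did not pass (adjusted p = 0.213 by limma). With a pseudocount of 1 the log2 change was 1.40, and with 64 it was 0.33, which shows how far the size of this difference rests on the scale.

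Nr5a2, also known as Lrh-1, is an orphan nuclear receptor that binds the same kind of DNA site as Esrrb and acts on Pou5f1 in mouse cells. Its brightest probe set, 1390965_at, had 35.5, 38.3 and 6.06 on the fPS arrays and 82.2, 50.6 and 32.4 on the ES arrays. ES replicate 3 fell below 2 fPS arrays, so the groups overlapped, and the log2 change of -0.79 (SE 0.395) did not pass (adjusted p = 0.397 by limma). It was -0.37 without fPS replicate 3, -0.52 without ES replicate 1, and -1.27 and -0.39 with pseudocounts of 1 and 64. The probe set 1384835_at had 18.6, 9.37 and 9.56 on the fPS arrays and 39.5, 10.7 and 9.18 on the ES arrays, with a log2 change of -0.24. The third, 1387573_a_at, had 4.25, 6.70 and 13.3 on the fPS arrays and 3.37, 2.03 and 6.42 on the ES arrays, with a change of the opposite sign, 0.26. The 3 probe sets of Nr5a2 thus gave no common direction, and only the brightest lay above the median on more than 1 array (2 of 6).

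Tfcp2l1 is a factor of the CP2 family and a target of LIF and β-catenin signalling. Its intensity was 1877, 2617 and 1674 on the fPS arrays and 1506, 1778 and 2785 on the ES arrays. The ranges of the groups lay almost on top of each other. The log2 change was 0.046 with a 95% interval from -0.61 to 0.70 (adjusted p = 0.969 by limma), the smallest of the 15 in size.

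Gbx2 is a homeobox factor, a STAT3 target in mouse ES cells, and later a patterning gene of the anterior hindbrain. Its brighter probe set, 1378734_at, had 234, 192 and 120 on the fPS arrays, against 604, 356 and 311 on the ES arrays. All 3 fPS arrays were lower than any ES array, with means of 182 ± 57.7 in fPS and 423 ± 158 in ES cells (SD, n = 3 each). The log2 change of -1.14 (SE 0.320, 95% interval -1.86 to -0.41) was the largest of the 15 in size, and it did not pass (adjusted p = 0.141 by limma). The dimmer probe set, 1394337_at, had 49.0, 35.2 and 13.2 on the fPS arrays, against 99.3, 65.2 and 50.2 on the ES arrays. It ordered the 6 arrays exactly as the brighter one did. Its change on the log2 scale was -0.89 (SE 0.337), and it did not pass either (adjusted p = 0.253 by limma). Without fPS replicate 3 it was -0.56. Both probe sets read the same 6 RNA samples, so they are repeat readings and not independent replicates. In cell populations like these, fewer cells with a transcript and less transcript per cell cannot be told apart.

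The promoters of Gbx2 and Nr0b1, whose groups did not overlap, and of Esrrb, which carries a STAT site, are shown as the RefSeq sequences of rat assembly GRCr8 from 250 bases before to 50 after the annotated start, 5′ to 3′ on the strand of the gene. Capitals mark matches to the motifs listed after them.
Gbx2, chr9:97959834-97960133, minus strand: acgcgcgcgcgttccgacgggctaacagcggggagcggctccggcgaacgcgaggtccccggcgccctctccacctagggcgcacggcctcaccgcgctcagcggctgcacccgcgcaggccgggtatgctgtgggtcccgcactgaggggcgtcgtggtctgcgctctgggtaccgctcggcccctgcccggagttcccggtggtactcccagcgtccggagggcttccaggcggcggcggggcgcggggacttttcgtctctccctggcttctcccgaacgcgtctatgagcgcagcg
Nr0b1, chrX:54707408-54707707, plus strand: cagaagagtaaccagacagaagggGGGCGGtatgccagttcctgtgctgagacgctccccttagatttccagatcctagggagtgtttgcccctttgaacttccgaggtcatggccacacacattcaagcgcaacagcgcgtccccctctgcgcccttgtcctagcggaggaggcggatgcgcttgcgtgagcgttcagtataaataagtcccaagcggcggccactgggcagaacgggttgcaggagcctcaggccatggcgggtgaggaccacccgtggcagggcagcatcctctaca
Esrrb, chr6:111738412-111738711, plus strand: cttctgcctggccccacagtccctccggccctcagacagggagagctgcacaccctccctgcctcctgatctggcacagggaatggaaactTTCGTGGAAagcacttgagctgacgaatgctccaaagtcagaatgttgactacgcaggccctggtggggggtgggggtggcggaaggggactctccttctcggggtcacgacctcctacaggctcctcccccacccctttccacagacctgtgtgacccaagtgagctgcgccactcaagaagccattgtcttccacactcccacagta

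A set of 7 motifs was searched on both strands of the promoters of Esrrb, Nr0b1, Tfcp2l1, Nr5a2, Gbx2, Zscan10 and Foxd3, the 7 members found in the promoter table. The STAT site TTCNNNGAA was in 2 of 7, those of Esrrb (first base at -159 from the start) and Zscan10 (at 3, within the transcript), and in 8.87% of 33469 promoters of the same length. The GC box GGGCGG, a site of Sp and Klf factors, was in 3 of 7, those of Nr0b1 (at -226), Tfcp2l1 and Zscan10, and in 33.1% of all. The site AAGGTCA of Esrrb and Nr5a2, the octamer ATGCAAAT of POU factors, the TCF/LEF site ATCAAAG, the T-box site GGTGTGA and the paired site of Tfcp2l1 (CCAG, 6 bases, CCAG) were in 0 of 7, and in 4.61%, 1.78%, 3.63%, 3.83% and 3.31% of all. No motif overlapped another in these windows, and Gbx2 held none of the 7. The Gbx2 window was the richest in CpG among the members, with 44 CpG in 300 bases and a ratio of observed to expected CpG of 1.08, against a median of 0.392 over all promoters, while that of Nr5a2 was the poorest (4 CpG, 0.264). These are descriptions of letters, not of sites bound in the cells.

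Tbx3, a T-box factor that sustains mouse ES cells downstream of LIF and favours extraembryonic endoderm when it is high, was read by 4 probe sets, all with a negative sign. The brightest, 1393160_at, had 1817, 1447 and 844 on the fPS arrays and 1486, 1404 and 1905 on the ES arrays. Its groups overlapped, since only fPS replicate 3 lay below the ES range, and the log2 change was -0.28 (SE 0.302, adjusted p = 0.734 by limma). The next, 1390627_a_at, ordered the 6 arrays in the same way, with 557, 389 and 257 on the fPS arrays and 404, 348 and 669 on the ES arrays. The log2 changes of the 4 ran from -0.45 to -0.14, and none of the 4 separated the groups.

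Sall4 is a zinc finger factor that binds Pou5f1 and recruits the NuRD complex in mouse ES cells. Its intensity was 654, 1013 and 627 on the fPS arrays and 708, 632 and 1276 on the ES arrays. Each group held 1 array well above its other two, fPS replicate 2 and ES replicate 3, and the log2 change was -0.15 (SE 0.316, 95% interval -0.87 to 0.57, adjusted p = 0.885 by limma). Zscan10 is a SCAN-domain zinc finger factor, known in the mouse as Zfp206, that keeps ES cells undifferentiated. Its intensity was 352, 192 and 267 on the fPS arrays and 257, 224 and 405 on the ES arrays, again with overlap and a log2 change of -0.12 (SE 0.297, 95% interval -0.79 to 0.56).

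Foxd3 is a forkhead factor that maintains the mouse epiblast and is later a marker of neural crest. Its intensity was 3.41, 2.09 and 1.32 on the fPS arrays and 2.27, 2.01 and 33.4 on the ES arrays. The other 5 arrays were near the bottom of the scale and ES replicate 3 alone stood above them, still under the median of its array. The log2 change of -0.47 (SE 0.377, adjusted p = 0.617 by limma) rested on that array, and it was 0.0089 without ES replicate 3.

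**Figure D2:**
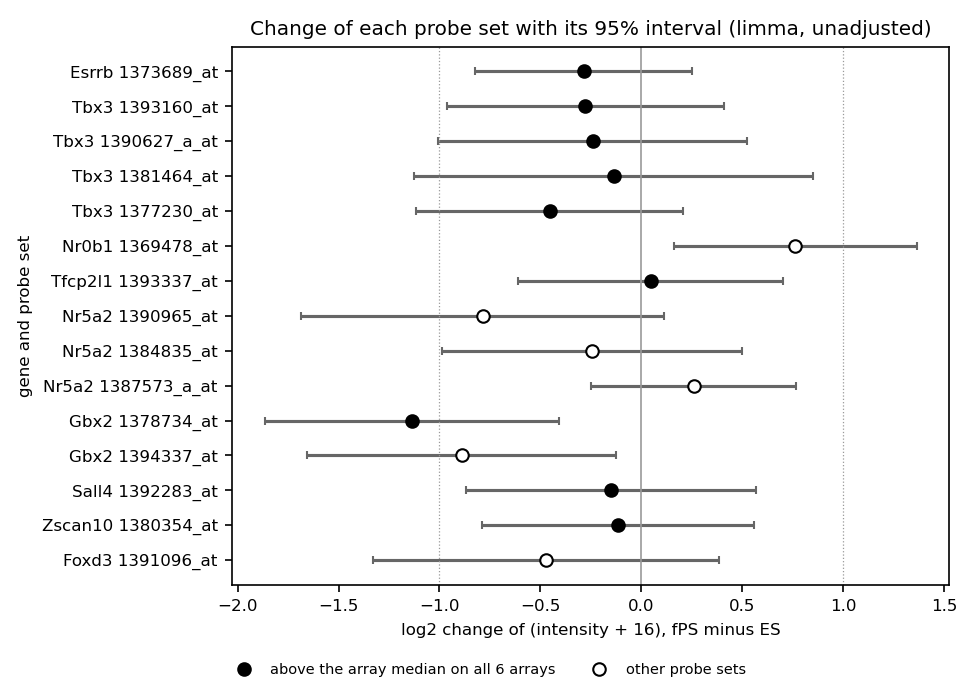
Log2 change of (intensity + 16), fPS minus ES, of each probe set (points) with its 95% interval from limma (bars), with filled points for probe sets above the array median on all 6 arrays and dotted lines at 2-fold. The intervals of Nr0b1 and of both Gbx2 probe sets exclude 0 before adjustment, and the other 12 include it.

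Many members were highest or lowest on the same pair of arrays. ES replicate 3 was the highest of the 6 arrays in 8 of 15 member probe sets, against 26.1% of all probe sets, and fPS replicate 3 was the lowest in 9 of 15, against 25.5% of all. Counted as genes, with the probe set of the highest mean for each, these were 6 of 9 and 6 of 9, against 28.1% and 29.5% of all genes. With each array centred on its median the counts over probe sets were 9 of 15 for ES replicate 3 and 7 of 15 for fPS replicate 3, against 28.7% and 18.1%, and over genes they were 6 of 9 and 4 of 9, against 31.2% and 22.3%. Both arrays were picked after the values were seen, as those most often highest or lowest in the members. Counts above the share of all probe sets follow in part from that choice, and Tbx3 enters the probe set counts 4 times. Gbx2, Nr0b1 and Nr5a2 were the exceptions for ES replicate 3, which was not the highest of the 6 in any of their probe sets. Of this pair, fPS replicate 3, often the lowest in the members, and ES replicate 3, often the highest, each carried the most fibroblast marker signal of its group. The summed intensity of 23 of 24 listed markers was 3474, 3640 and 4546 on the fPS arrays and 2655, 2617 and 4255 on the ES arrays, and no measured marker had an intensity under 1 on any array. Timp1 alone gave 2080, 2358 and 1404 of the fPS sums and 2106, 1722 and 590 of the ES sums, lowest on replicate 3 of each group. The markers were thus unequal, and Col1a2 had 126, 112 and 541 on the fPS arrays and 4.03, 53.1 and 712 on the ES arrays. The part of the fibroblast signal in the members' differences was not tested.

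**Figure D3:**
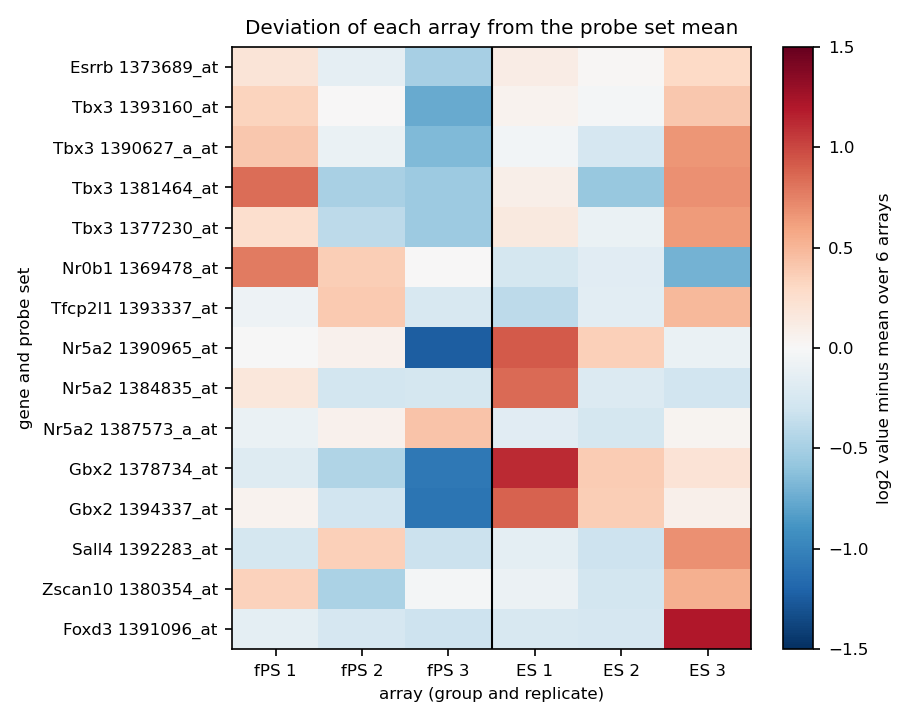
Deviation of each array (columns, 3 fPS left and 3 ES right) from the mean log2 value of the probe set over 6 arrays (rows), red above and blue below. By rank, fPS replicate 3 was the lowest of 6 in 9 of 15 probe sets and ES replicate 3 the highest in 8. The colours show the deviation from the mean and not the rank, so they are not a count of these.

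The direction of a member could therefore turn on 1 array. In 7 of the 15 probe sets, those of Esrrb, Nr0b1 and Gbx2 among them, the sign was kept in every alternative run, and in 8 it turned in at least 1. Without ES replicate 3, the log2 change of Sall4 was 0.15 and that of Zscan10 0.12, and without fPS replicate 3 that of the brightest Tbx3 probe set was 0.033. With single arrays left out, the brighter Gbx2 probe set ran from -1.33 to -0.86, the dimmer from -1.14 to -0.56, and Nr0b1 from 0.57 to 0.95. With ES replicate 3 and fPS replicate 3 left out together, the changes of the brighter Gbx2 probe set and of Nr0b1 were -1.07 and 0.79, that of the dimmer Gbx2 probe set was -0.75, and that of Esrrb was -0.033. None passed in any of these fits, some of which called no probe set at all on the array.

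**Figure D4:**
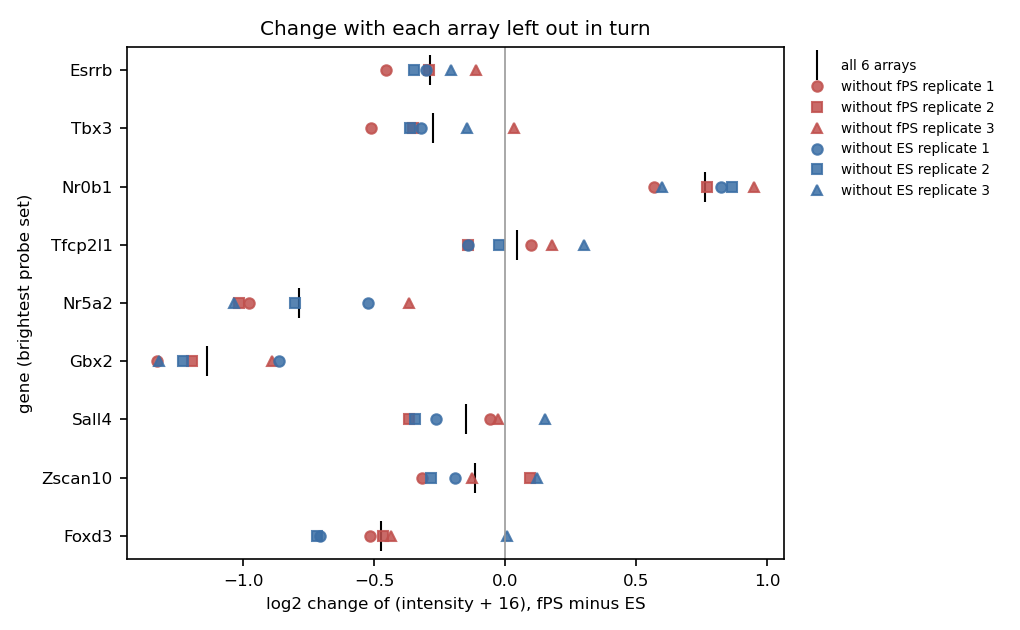
Log2 change of (intensity + 16), fPS minus ES, of the brightest probe set of each member with all 6 arrays (bar) and with each array left out in turn (symbols, red for fPS and blue for ES arrays). The brighter Gbx2 probe set stays between -1.33 and -0.86 and Nr0b1 between 0.57 and 0.95, while Tbx3, Tfcp2l1, Sall4, Zscan10 and Foxd3 have values on both sides of 0.

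The genes with the most similar profile were found for the member with the largest change and for the brightest. Likeness was the root mean square distance between log2 values over the 6 arrays, each profile centred on its own mean, among 7918 other named genes with a mean intensity of at least 64. For Gbx2 the nearest were N6amt1, a methyltransferase gene, Igfbpl1, Acer3, an alkaline ceramidase, and Nmral1, at distances of 0.141, 0.141, 0.168 and 0.169, against a median of 0.688 over all genes compared. N6amt1 had 155, 113 and 80.8 on the fPS arrays, against 430, 303 and 211 on the ES arrays. For Tfcp2l1 they were Bcor, a corepressor of the Polycomb group, Arhgap5, Adam17, a shedding protease, and Acad8, at 0.0627, 0.0751, 0.0884 and 0.0908, against a median of 0.401. Bcor had 498, 645 and 410 on the fPS arrays and 408, 469 and 767 on the ES arrays, so that it shared the high value of Tfcp2l1 on ES replicate 3. The genes named were picked as the nearest of 7918 over only 6 arrays, and likeness was not tested.

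Other genes of the naive state were described from a list of 32, of which 16 were measured. Sox2, Lin28a and Fgf4 on it were also set as markers of pluripotent cells in general, so the list is not restricted to the naive state. In limma 1 of 16 was lower, 0 were higher and 15 did not pass, where 0.858% of 14217 genes passed. Tet1, an enzyme that oxidises 5-methylcytosine, fell to 227, 111 and 129 on the fPS arrays, against 524, 419 and 735 on the ES arrays, a log2 change of -1.77 (SE 0.310, adjusted p = 0.0489). It passed in 5 of 14 alternatives, with adjusted p from 0.00722 to 0.219, and the call was lost without ES replicates 1, 2 or 3 (adjusted p = 0.167, 0.0864 and 0.128) and without fPS replicates 2 or 3 (0.219 and 0.128). Lin28a, an RNA-binding protein that blocks let-7, had 669, 351 and 424 on the fPS arrays, against 1559, 866 and 1161 on the ES arrays (log2 change -1.30, adjusted p = 0.0933 by limma). Sox2, a partner of Pou5f1, had 2838, 1856 and 1281 on the fPS arrays, against 3427, 3266 and 4618 on the ES arrays, and Mycn, a Myc family factor, had 575, 287 and 228 on the fPS arrays, against 627, 663 and 1512 on the ES arrays. Neither Sox2 nor Mycn passed (adjusted p = 0.181 and 0.185 by limma), although their groups did not overlap. The list's groups lay lower without overlap in 4 of 16 genes and higher in 1, Klf5, where 11.3% of all genes lay lower and 11.3% higher. By sign 10 genes were negative and 6 positive, and the median log2 change was -0.24, against -4.6e-05 for all genes. Klf2, Klf4 and Klf5 had log2 changes of -0.12, -0.27 and 0.32, and Stat3 and Socs3 of 0.57 and 0.77. The list thus had no single direction. Pou5f1 and Nanog had no probe set of their own in the annotation and were not analysed here, so of 8 markers set for pluripotent cells only Sox2, Lin28a and Fgf4 were measured. Sox2 and Lin28a were above the median on every array of both groups, and Fgf4, a growth factor of pluripotent cells, on 5 of 6, with 112, 88.2 and 75.9 on the fPS arrays and 32.7, 68.2 and 129 on the ES arrays.

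The inputs and partners of the network were 22 genes, all measured, and 0 passed, where 0.858% of all genes passed. Without overlap 1 lay higher and 1 lower, against 11.3% of all genes in each direction. Tcf7l1, the repressor that GSK3 inhibition relieves, had 257, 192 and 225 on the fPS arrays and 193, 191 and 304 on the ES arrays, and its log2 change was -0.0066. Jak1, a kinase of the LIF receptor, had 395, 451 and 285 on the fPS arrays, against 210, 210 and 268 on the ES arrays, without overlap (log2 change 0.67, adjusted p = 0.225 by limma). Jak2, on the same list, had the opposite sign, with overlap (log2 change -0.35, adjusted p = 0.595 by limma). Hdac2, a deacetylase of the NuRD complex, had 3223, 2779 and 2696 on the fPS arrays, against 4013, 3738 and 5477 on the ES arrays (log2 change -0.59, adjusted p = 0.258). Among 17 of 23 listed relatives of the members, 0 passed, and 1 lay higher and 0 lower without overlap. That gene was Esrra, an estrogen-related receptor like Esrrb. It had 76.9, 114 and 90.5 on the fPS arrays, against 67.6, 47.7 and 43.5 on the ES arrays (log2 change 0.67, adjusted p = 0.212 by limma). The median log2 changes were -0.044 for the inputs and partners and -0.095 for the relatives.

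Genes of the primed state after implantation had no common direction. Of 19 measured of 26 listed, 0 passed, where 0.858% of all genes passed. Without overlap 2 lay higher and 3 lower, near the 11.3% of all genes in each direction, and the median log2 change was -0.14. Pou3f1, a POU factor of the primed epiblast, had 166, 195 and 157 on the fPS arrays, against 54.6, 81.7 and 34.0 on the ES arrays (log2 change 1.42, adjusted p = 0.0561 by limma). Lef1, a β-catenin partner, had 548, 215 and 222 on the fPS arrays, against 924, 849 and 1207 on the ES arrays (log2 change -1.67, adjusted p = 0.0742). Sox11, a factor of neural progenitors, had a log2 change of -1.21 (adjusted p = 0.0607), and Nefl, a neurofilament gene, of -2.49 with an SE of 0.747 (adjusted p = 0.163). Fgf5, the classical primed marker, was dim in both groups, with 5.98, 7.77 and 1.46 on the fPS arrays and 8.52, 2.89 and 2.65 on the ES arrays.

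Markers of extraembryonic endoderm, a lineage in which Tbx3, Sall4 and Nr5a2 can also be expressed, were set beside the members. Of 22 measured of 23 listed, 0 passed, where 0.858% of all genes passed. By sign 17 were positive, and 8 lay higher and 0 lower without overlap, against 11.3% of all genes in each direction. The summed intensity of these markers was 9499, 9195 and 10869 on the fPS arrays and 6316, 6790 and 8494 on the ES arrays, and none was under 1 on any array. Apoe alone gave 5438, 5309 and 5456 of the fPS sums and 3904, 4707 and 4184 of the ES sums. Above the array's median were 13, 13 and 16 of the 22 on the fPS arrays and 10, 9 and 10 on the ES arrays. Sox17, an endoderm transcription factor, had 270, 214 and 192 on the fPS arrays, against 52.0, 63.8 and 110 on the ES arrays (log2 change 1.44, adjusted p = 0.0552 by limma). Cubn, a receptor of visceral endoderm, and the basement membrane collagens Col4a1 and Col4a2 did not pass, with log2 changes of 1.48, 1.91 and 1.15 (limma, adjusted p = 0.0594, 0.0875 and 0.131). Col4a1 was highest on replicate 3 of each group, the arrays with the most fibroblast signal, and Col4a2 on fPS replicate 2 and ES replicate 3. Pdgfra counts in both this list and the fibroblast list, so the lists do not fully separate the cell types. The groups overlapped in every probe set of Tbx3, Sall4 and Nr5a2. The signs of Sall4 and of the brightest Tbx3 probe set turned with the arrays left out. Those of Tbx3 probe set 1377230_at and of the brightest Nr5a2 probe set were negative in every alternative. Of 23 fibroblast markers measured, 0 passed, 2 lay higher without overlap, namely Mmp2 with a log2 change of 1.37 and Postn with 1.20 (limma, adjusted p = 0.113 and 0.125). The part of either cell type in the values of the members was not tested.

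**Figure D5:**
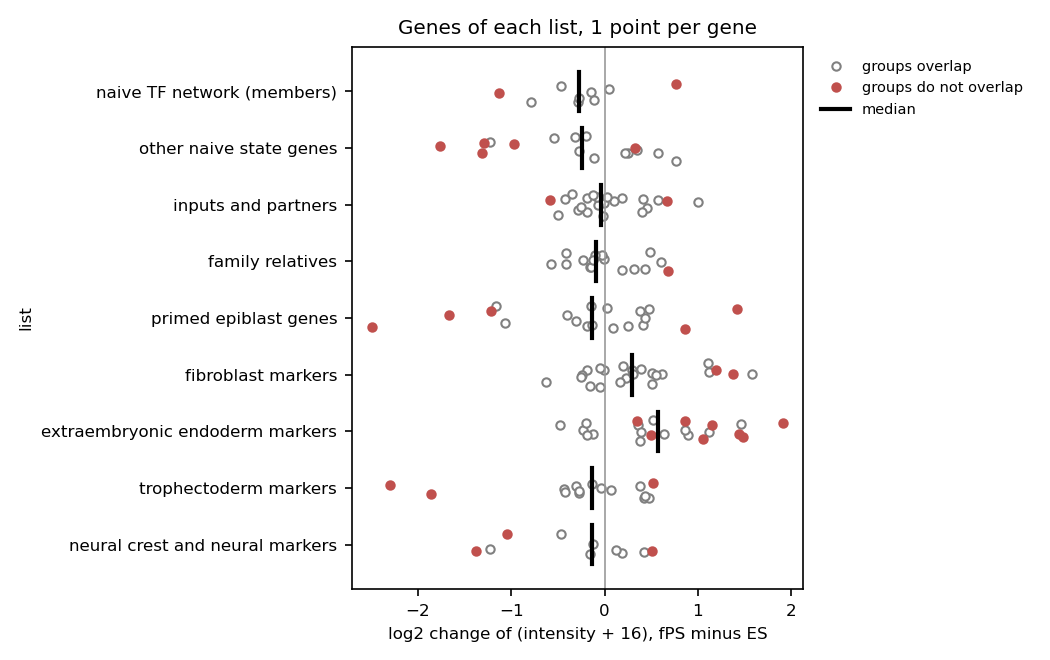
Log2 change of (intensity + 16), fPS minus ES, of each measured gene (points, by its brightest probe set) in the network members and 8 other lists, filled where the 3 fPS and 3 ES arrays do not overlap, with the median as a bar. The members' median of -0.28 over 9 genes lies close to that of the other naive state genes (-0.24), and that of extraembryonic endoderm markers is at 0.58.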

How the data were processed

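The authors deposited 1 linear intensity per probe set and array; its range shows that it is not a log value. Per the labels, cRNA was prepared by the standard Affymetrix protocol; how probes were summarised and arrays scaled is not given in the sources used here. With 0 other columns per sample, no detection calls were at hand. Of 31099 probe sets, 57 controls were left out. The platform annotation gave 1 symbol to 20826 probe sets, several to 436 and none to 9780, and the gene identifiers of all 9 members were found in the RefSeq table of GRCr8.

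Values were analysed as log2(intensity + 16), without further normalization or filter, in limma 3.58.1 (lmFit and eBayes) in R 4.3.3, with Benjamini-Hochberg adjustment over 31042 probe sets and a threshold of 0.05. The probe set of highest mean log2 value stands for its gene. The fit was tested on simulated data. Array medians were 45.3, 39.8 and 36.2 for fPS and 37.6, 38.7 and 37.7 for ES cells, and precision is limited by there being 3 arrays per group. Alternatives were quantile normalization, centring on the median, pseudocounts of 1 and 64, leaving out the dimmest 50% of probe sets, trend and robust eBayes, a replicate block, averaging the probe sets of a gene, and leaving out each array. Leaving out ES replicate 3 and fPS replicate 3 together was chosen after seeing the data.

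The members, lists and alternatives were chosen with earlier results of these data known. Named genes were all members and, per list, those past the threshold and then the largest changes among genes without overlap, up to 4. Tcf7l1, Fgf5, Fgf4, Klf2, Klf4, Klf5, Stat3, Socs3, Timp1, Col1a2, Apoe, Pdgfra and Jak2 were named after their values were seen. Plots used Python 3.11.15 and matplotlib 3.10.9.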

Additional observations from a re-analysis of the deposited data

How the results depend on the processing

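The count of members past the threshold was 0 in all 15 alternatives, in which the lowest adjusted p was 0.0516, for Gbx2 without the dimmest 50% of probe sets. That is a weak check, since on the whole array the fit called 0 probe sets with a pseudocount of 1, without ES replicate 1, without fPS replicate 2 and without both arrays numbered 3, and 1 without ES replicate 3. With the dimmest 50% left out, Nr0b1, Nr5a2 and Foxd3 were not tested. The signs of 8 member probe sets turned, and the cause was not tested. With single arrays left out, log2 changes ran from -0.32 to 0.12 for Zscan10, from -0.14 to 0.30 for Tfcp2l1, from -0.37 to 0.15 for Sall4, from -0.72 to 0.0089 for Foxd3, from -0.45 to 0.12 for Nr5a2 probe set 1384835_at, and, for Tbx3, from -0.59 to 0.17 for 1381464_at, from -0.50 to 0.033 for 1390627_a_at and from -0.51 to 0.033 for 1393160_at. Without both arrays numbered 3 they were 0.11 for Zscan10, 0.28 for Sall4, 0.047 for Foxd3 and 0.41, 0.30 and 0.16 for these Tbx3 probe sets. Tfcp2l1, at 0.046 with all arrays, kept its sign there (0.43), and arrays centred on the median gave -0.014.

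The count of calls was also 0 in every alternative for the inputs and partners and for the relatives, and it moved in the other 6 lists. Other naive state genes had 0 calls with pseudocounts of 1 and 64, with the replicate block and without both arrays numbered 3, 2 without the dimmest 50% and with trend and robust settings, and 0 to 1 with single arrays left out. Trophectoderm markers had 0 with pseudocounts of 1 and 64 and without both arrays numbered 3, 2 with centred arrays, without the dimmest 50% and with trend and robust settings, and 0 to 1 with single arrays left out. Primed genes had 1 after quantile normalization, 3 with centred arrays, 4 without the dimmest 50%, 3 with trend and robust settings, and 0 to 1 with single arrays left out. Extraembryonic endoderm markers had 1 after quantile normalization, with centred arrays and with the replicate block, and 3 without the dimmest 50% and with trend and robust settings. Neural markers had 1 in the same settings except the block, and fibroblast markers 1 without the dimmest 50%. Over all probe sets, 215 passed, against 107 with the replicate block, 337 after quantile normalization, 376 with centred arrays, 899 without the dimmest 50%, 619 with trend and robust settings and 41 with a pseudocount of 64. Whether the numbers pair the samples is not stated. Deviations from the group means correlated at 0.15, 0.020 and 0.075 between fPS and ES arrays of the same number. For each fPS array this was its highest value with any ES array, although ES replicate 2 correlated more with fPS replicate 3 (0.054) than with fPS replicate 2 (0.020). Correlations this weak, with 3 arrays per group, cannot settle whether arrays of the same number belong together.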

Other observations

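Trophectoderm and neural genes were measured beside the network. Of 15 trophectoderm markers measured of 16, 1 was lower in limma and 14 did not pass, where 0.858% of all genes passed, and 1 lay higher and 2 lower without overlap, against 11.3% of all genes in each direction. Tfap2a, a factor of trophoblast and surface ectoderm, fell to 40.8, 7.81 and 22.8 on the fPS arrays, against 220.0, 188 and 113 on the ES arrays, a log2 change of -2.30 (adjusted p = 0.0388), and over 14 alternatives its adjusted p ran from 0.00394 to 0.179. The call was lost without ES replicates 1, 2 or 3 (adjusted p = 0.154, 0.0970 and 0.0971 by limma) and without fPS replicates 2 or 3 (0.179 and 0.0993). Cdx2, which specifies trophectoderm, had 244, 144 and 124 on the fPS arrays, against 970.4, 377 and 706 on the ES arrays, without overlap (log2 change -1.86, adjusted p = 0.0607 by limma). Hand1, a factor of trophoblast giant cells, had a log2 change of 0.51.

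Of 10 neural and neural crest genes measured of 14, a list that also holds Foxd3, 0 passed, where 0.858% of all genes passed. Without overlap 1 lay higher and 2 lower, near the 11.3% of all genes in each direction. Msx2, a homeobox factor of neural crest, had 28.8, 22.7 and 25.1 on the fPS arrays, against 108, 58.1 and 119 on the ES arrays (log2 change -1.38, adjusted p = 0.0562 by limma). Tubb3, a neuronal tubulin, had a log2 change of -1.05 and Pax6 of 0.51, with groups that did not overlap in either gene.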
